A study of Homo sapiens with 2 samples.

Results

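The genes of blood coagulation and fibrinolysis were examined in HepG2 cells treated with Padma 28. HepG2 is a human hepatocellular carcinoma line that keeps many functions of the hepatocyte, among them the secretion of plasma proteins. Padma 28 is an Indo-Tibetan preparation of powdered plants with camphor and calcium sulphate, used for symptoms of circulatory disorders. The treated cells received 218 μg/ml of its ethanolic extract for 18 h and the control cells the solvent, 0.9% ethanol (EtOH), for the same time. Cells of 3 cultures per treatment were pooled, and 1 Affymetrix array per treatment was hybridised, so no spread between cultures and no p-value can be given. A single tumor line stands for the liver here, without the endothelial cells, platelets and macrophages that share hemostasis with hepatocytes in the body.

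The 33 genes were taken as a named list of clotting factors, their inhibitors, the plasminogen system and the vitamin K cycle, out of 19775 genes with a probe set of their own on the array. A probe set is a group of short probes for 1 transcript, and its value is a log2 expression value. Of the 65 probe sets annotated to the 33 genes, 62 belonged to 1 gene alone and 3 were shared with another gene. Vitronectin (VTN) had only shared probe sets, which left 32 genes. Each was represented by the brightest of its own probe sets. Differences are log2 values with Padma 28 minus log2 values with EtOH. Well above background meant at least 4.25 with EtOH and at least 4.35 with Padma 28, which is 2 log2 units over the most frequent value of the array.

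Coagulation runs as a cascade of serine proteases made mostly by the liver. Tissue factor with factor VII starts it, the contact system can start it on charged surfaces, and both routes lead through factor X to thrombin, which turns fibrinogen into fibrin. Antithrombin, heparin cofactor II, tissue factor pathway inhibitor and the protein C system hold the cascade back, while plasmin, cut from plasminogen by its activators, dissolves the clot. Several of the zymogens need a vitamin K-dependent carboxylation in the hepatocyte before they can bind membranes.

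The hepatocyte character of the cells was seen on both arrays. All 8 hepatocyte markers with a probe set of their own, such as albumin and transferrin, lay between 12.8 and 16.6. Of the endothelial markers 1 of 6 was above background, PECAM1 on 1 of its 5 probe sets, while VWF, CDH5, TEK, KDR and TIE1 were not. None of 5 megakaryocyte and platelet markers and none of 4 macrophage markers with a probe set of their own was above background. CD68, a further macrophage marker, had a probe set shared with SNORA67. It was above background, at 4.90 with EtOH and 4.86 with Padma 28. Of 6 stellate cell and fibroblast markers, ACTA2 at 9.83 with EtOH, COL1A1 at 6.74 on 1 of 5 probe sets and PDGFRB at 5.94 were above it.

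The sequences before the starts of FGA, FGB and FGG are shown, which encode the chains of fibrinogen. They lie within 49.7 kb of each other on chromosome 4. On their brightest probe sets these neighbours had unequal differences between the arrays, of -0.09, -0.55 and -0.06. The second FGA probe set had a difference of -0.94, so the order of the 3 genes depends on the probe set. PLG and F5 are shown as the genes with the lowest differences, and F10 as a gene with lower values whose promoter held the letters of an antioxidant response element. All are from RefSeq (GRCh38.p14), 5′ to 3′ on the strand of the gene, and end at the base before the annotated start, the first of 2 for PLG and FGB. Capitals mark the antioxidant response element (TGACNNNGC on either strand) in F10.
FGA, chr4:154590743-154590862, minus strand: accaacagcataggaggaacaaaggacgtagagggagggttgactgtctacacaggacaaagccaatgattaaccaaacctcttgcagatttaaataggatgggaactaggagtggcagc
FGB, chr4:154562860-154562979, plus strand: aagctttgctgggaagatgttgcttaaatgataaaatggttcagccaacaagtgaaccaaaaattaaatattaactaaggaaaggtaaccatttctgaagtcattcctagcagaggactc
FGG, chr4:154612657-154612776, minus strand: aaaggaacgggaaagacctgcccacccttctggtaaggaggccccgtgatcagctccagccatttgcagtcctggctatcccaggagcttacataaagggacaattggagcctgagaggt
PLG, chr6:160702073-160702192, plus strand: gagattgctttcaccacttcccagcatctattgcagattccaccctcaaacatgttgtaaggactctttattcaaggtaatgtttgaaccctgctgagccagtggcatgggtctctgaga
F5, chr1:169586482-169586601, minus strand: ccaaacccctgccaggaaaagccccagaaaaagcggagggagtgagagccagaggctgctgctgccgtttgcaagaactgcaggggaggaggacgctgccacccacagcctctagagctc
F10, chr13:113122679-113122798, plus strand: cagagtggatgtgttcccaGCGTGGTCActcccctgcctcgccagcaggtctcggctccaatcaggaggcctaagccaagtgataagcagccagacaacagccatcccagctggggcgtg

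Promoter sequences of 250 bases before and 50 bases after an annotated start were found for 28 of the 33 genes. The antioxidant response element was in 6 of the 28 (F10, FGG, SERPIND1, PROC, PLAU and VKORC1) against 16.1% of all 27305 genes with such a sequence. The xenobiotic response element core (GCGTG on either strand) was in 7 (F7, F9, F10, HRG, PLG, PLAU and PLAUR) against 40.6%. In F10 a match 101 bases before the start overlaps the antioxidant response element, and a further match lies 5 bases before the start. The TRE (TGAGTCA) was in F3 and PLAUR against 6.05% of all genes, and the C/EBP-ATF response element (TGATGNAAT) was in none of the 28 against 1.22%. A match of letters is not a measured binding site.

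None of the 32 genes differed by more than 2-fold between the arrays. Over all 19775 genes 0.875% were more than 2-fold higher and 0.384% more than 2-fold lower with Padma 28, and over the 10361 genes above background on at least 1 array the shares were 1.57% and 0.705%. Small negative differences prevailed. Of the 32 genes 23 were above background on both arrays, and 19 of these 23 had lower values with Padma 28, whereas 41.9% of the 10361 genes were lower. Over all 32 genes 26 were lower, beside 67.4% of all 19775, many of them at background. The median difference of the 23 was -0.17 and that of the 10361 was 0.06. Over all 32 genes the median was -0.07, and over all 19775 genes it was -0.02. The 9 genes whose brightest probe set was below background on both arrays were F9, KLKB1, HRG, F13B, PROZ, THBD, PLAT, PLAU and PLAUR. A lower value may stem from fewer cells expressing a gene or from less of its RNA per cell, which cannot be told apart.

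**Figure D1:**
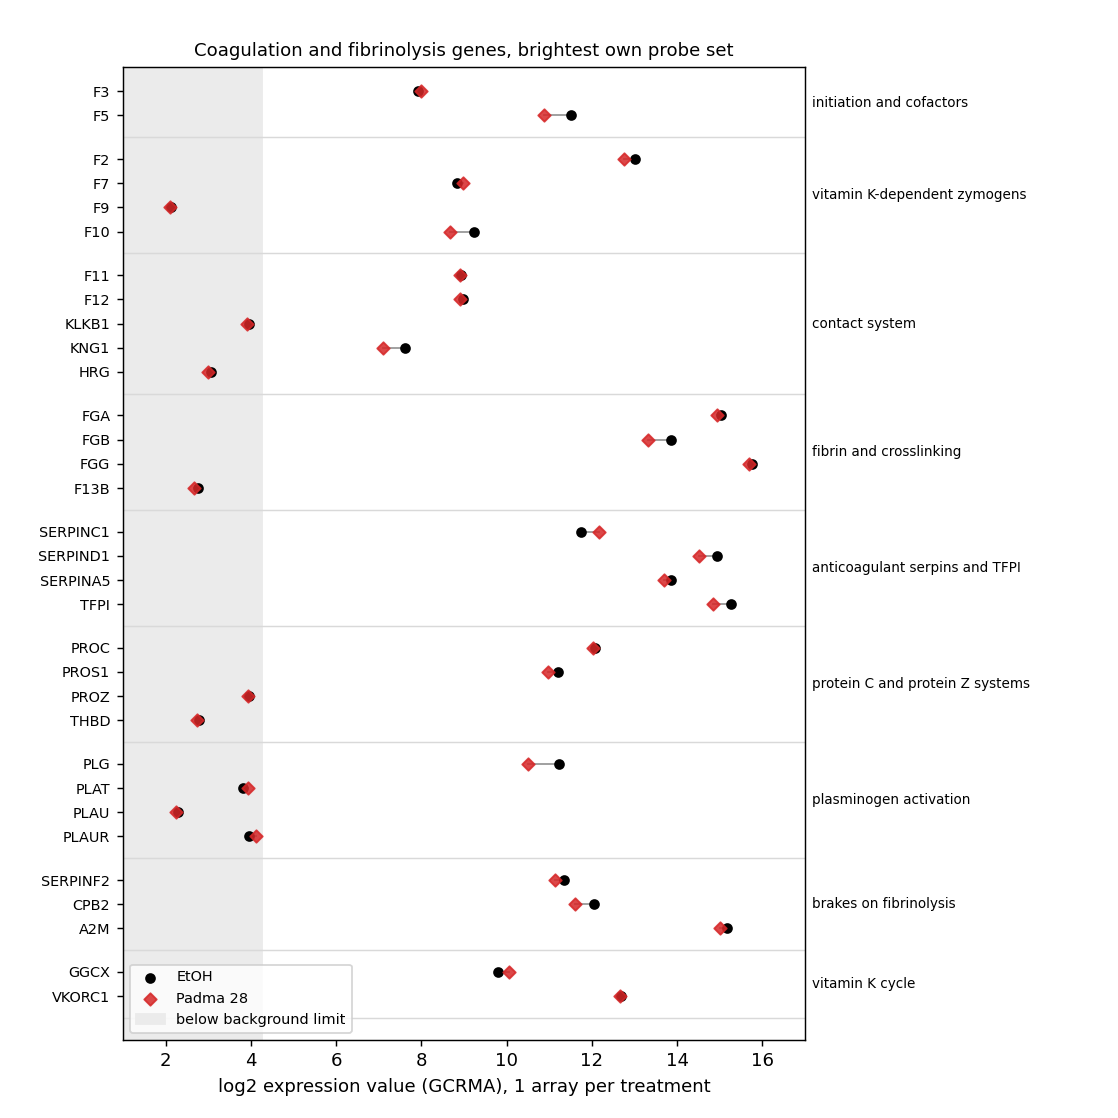
Log2 expression value (horizontal axis) of the 32 coagulation and fibrinolysis genes with a probe set of their own, with EtOH (black circles) and Padma 28 (red diamonds), 1 array per treatment, with grey lines joining the values of a gene and grey shading below the background limit of the EtOH array. PLG and F5 have the widest gaps, SERPINC1 lies higher with Padma 28, and 9 genes lie in the shaded range on both arrays.

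**Figure D2:**
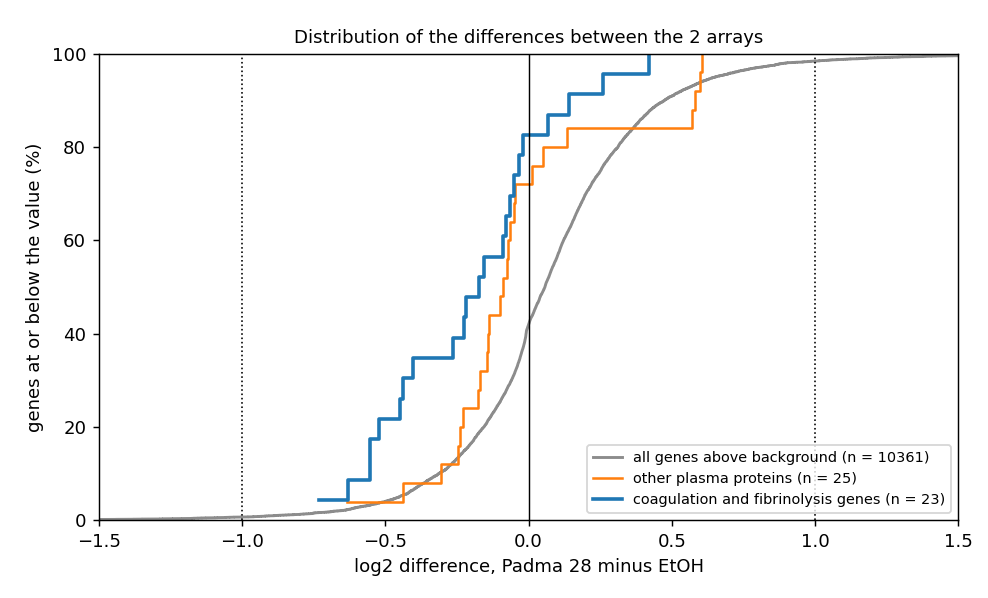
Share of genes (vertical axis, %) at or below each log2 difference, Padma 28 minus EtOH (horizontal axis), for the 23 coagulation and fibrinolysis genes above background (blue), 25 other plasma proteins (orange) and all 10361 genes above background (grey), with dotted lines at 2-fold. The blue line crosses 0 at 82.6%, the orange line at 72% and the grey line at 41.9%.

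Plasminogen (PLG), the zymogen of plasmin, encoded on chromosome 6, was the gene with the lowest difference of the 32. Its brightest probe set was at 11.22 with EtOH and 10.49 with Padma 28, which is 1.66-fold lower. The other probe sets of PLG pointed the same way. The next went from 5.46 to 4.64, a difference of -0.81. The dimmest went from 4.82 to 3.67, the latter below background, so it was lower by at least 1.38-fold. The probe set shared with LPA, a close relative of PLG, was at 10.36 and 9.44, a difference of -0.92, while the probe set that belongs to LPA alone was below background, at 3.52 and 3.38. Of the 10361 genes above background 1.63% had a lower difference than PLG.

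The activators of plasminogen and the urokinase receptor were hardly detected. Tissue plasminogen activator (PLAT) was at 3.82 with EtOH and 3.93 with Padma 28, and urokinase (PLAU) at 2.29 and 2.25, all below background. The brightest probe set of the urokinase receptor (PLAUR) was also below background, at 3.96 and 4.13. A dimmer PLAUR probe set went from 3.24, below background, to 4.51, and was thus higher by at least 1.20-fold, while the last PLAUR probe set was at 3.54 and 3.51. Of the 42 probe sets of the 32 genes above background on at least 1 array, only this one and the dimmest of PLG had deposited values more than 2-fold apart, against 1.51% higher and 0.99% lower of all 18885 such probe sets. Both were below background on 1 array, so 2-fold is not shown for either.

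Inhibitors of fibrinolysis were also somewhat lower with Padma 28. CPB2, the carboxypeptidase that trims plasmin binding sites from fibrin, was at 12.04 with EtOH and 11.59 with Padma 28, a difference of -0.45. Alpha 2-antiplasmin (SERPINF2) was at 11.36 and 11.13, and the protease inhibitor alpha 2-macroglobulin (A2M) at 15.16 and 15.01. The brighter probe set shared by SEBOX and vitronectin, an adhesive protein of plasma and matrix, was at 12.01 and 11.57, and its signal cannot be assigned to either gene. All these values were lower with Padma 28, by 1.11-fold to 1.37-fold.

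Factor V (F5), the cofactor of factor Xa, encoded on chromosome 1, was lower on each of its probe sets. The brightest was at 11.51 with EtOH and 10.88 with Padma 28, which is 1.55-fold lower. The second went from 10.73 to 10.00 and the third from 6.37 to 6.15. With PLG, F5 was 1 of the 2 genes past 1.5-fold, both lower, while 2.9% of the genes above background were lower and 6.49% higher by that much. Tissue factor (F3), the receptor that starts the cascade, was at 7.93 and 7.99.

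The vitamin K-dependent zymogens lay on both sides of 0. Factor X (F10) was at 9.23 with EtOH and 8.67 with Padma 28, a difference of -0.55, and prothrombin (F2) at 13.01 and 12.75, a difference of -0.27. Factor VII (F7) was at 8.83 and 8.97, a difference of 0.14. F7, F10 and PROZ are neighbours within 66.6 kb on chromosome 13. Of these F10 was lower. The small difference of F7 was no larger than the median gap of 0.14 between the differences of the 2 brightest probe sets of a gene. Factor IX (F9) was below background at 2.13 and 2.10, as was protein Z (PROZ), a cofactor in the inhibition of factor Xa, at 3.94 and 3.93.

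The enzymes of the vitamin K cycle differed little. The gamma-glutamyl carboxylase GGCX was at 9.80 with EtOH and 10.06 with Padma 28 on its brightest probe set, a difference of 0.26. Its other probe sets had differences of -0.01, -0.20, 0.04 and 0.15, so they lay on both sides of 0. VKORC1, the epoxide reductase that regenerates vitamin K and the target of warfarin, was at 12.69 and 12.67.

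In the contact system the lowest difference was that of KNG1, which encodes the kininogens. KNG1 was at 7.62 with EtOH and 7.09 with Padma 28, a difference of -0.52, and its other probe sets were below background. Factor XI (F11) was at 8.93 and 8.90, with differences of -0.13 and -0.21 on its other probe sets above background, and factor XII (F12) at 8.99 and 8.91. Plasma prekallikrein (KLKB1) was below background, at 3.95 and 3.92. The same held for histidine-rich glycoprotein (HRG), at 3.08 and 3.01, which was only listed beside the contact system. HRG is the neighbour of KNG1 on chromosome 3, and KLKB1 that of F11 on chromosome 4.

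The chains of fibrinogen, which assemble in equal numbers, differed in their values. FGB, the beta chain, was at 13.87 with EtOH and 13.31 with Padma 28 on its brighter probe set, a difference of -0.55, and at 13.39 and 13.03 on the other, a difference of -0.36. FGG, the gamma chain, was at 15.75 and 15.69 on its only probe set, a difference of -0.06. For FGA, the alpha chain, the answer depended on the probe set. The brightest was at 15.02 and 14.93, a difference of -0.09, the second at 12.39 and 11.45, a difference of -0.94, and the third at 5.93 and 5.90. F13B, the carrier subunit of the fibrin crosslinking factor XIII, was below background at 2.77 and 2.66.

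Antithrombin (SERPINC1), the main inhibitor of thrombin and factor Xa, encoded on chromosome 1, was the gene with the highest difference of the 32. Its probe sets were at 11.74 and 11.28 with EtOH and at 12.16 and 11.64 with Padma 28, differences of 0.42 and 0.36. It was thus 1.34-fold higher on the brighter probe set, and 87.7% of the genes above background had a lower difference. Heparin cofactor II (SERPIND1) was at 14.93 and 14.52, a difference of -0.40, and the protein C inhibitor SERPINA5 at 13.87 and 13.69.

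Tissue factor pathway inhibitor (TFPI), which blocks factor Xa and the complex of tissue factor with factor VIIa, was at 15.27 with EtOH and 14.84 with Padma 28, a difference of -0.44. Its probe sets gave an uneven picture, with differences of -0.70, -0.09 and -0.25 on other bright ones and of 0.13 on the dimmest, which was at 6.72 and 6.85. Protein C (PROC) was at 12.08 and 12.03, and its cofactor protein S (PROS1) at 11.20 and 10.98. Thrombomodulin (THBD), the endothelial receptor needed for the activation of protein C, was below background on each of its 3 probe sets, the brightest at 2.79 and 2.73.

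**Figure D3:**
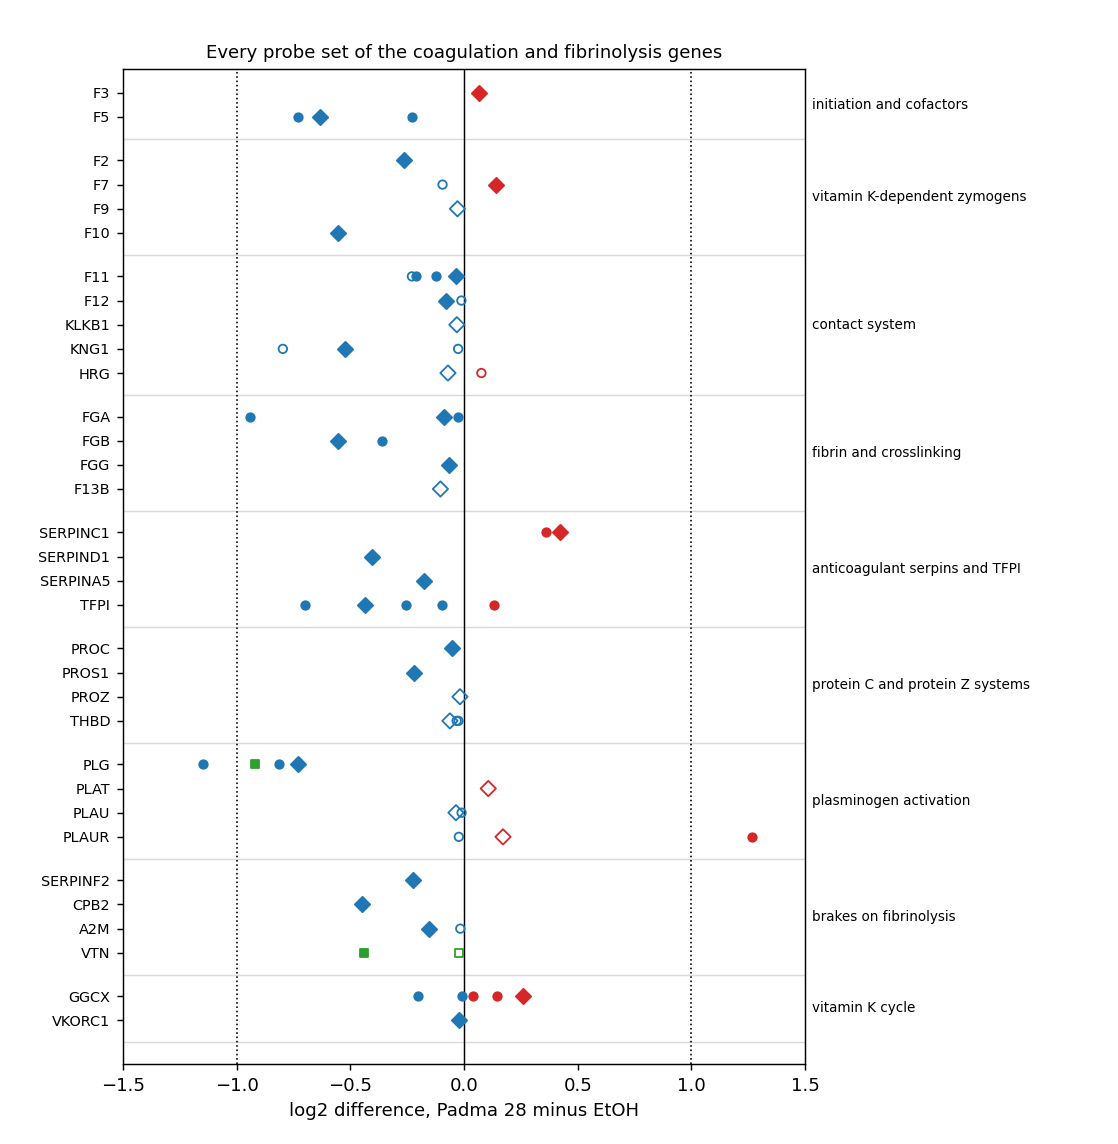
Log2 difference, Padma 28 minus EtOH (horizontal axis), of all 65 probe sets of the 33 genes, 1 array per treatment, where diamonds are the brightest own probe set of a gene, circles its other own probe sets and green squares probe sets shared with another gene. Blue is lower and red higher with Padma 28, open symbols lay under the background limit of each array, and 2-fold is marked by dotted lines. All probe sets of PLG and F5 lie left of 0, those of SERPINC1 right of it and those of TFPI and GGCX on both sides.

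Where a gene had several probe sets above background, they can be set against each other. Of the 8 genes with 2 or more, 5 (PLG, F5, FGA, FGB and F11) were lower on all of them, against 28.5% of the 5064 genes of this kind. TFPI and GGCX had probe sets on both sides of 0, as did 37.7% of the 5064 genes, and SERPINC1 was higher on both of its probe sets. For genes with 2 probe sets above background on both arrays, the differences of the 2 brightest lay 0.14 apart in the median over 4912 genes. The median gap of the 8 clotting genes was 0.15. FGA (0.85), GGCX (0.27), TFPI (0.26) and FGB (0.19) had wider gaps than the median of all genes, and F5 (0.10), F11 (0.09), PLG (0.08) and SERPINC1 (0.06) narrower ones.

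A list of 33 other hemostasis genes, of which 30 had a probe set of their own, was spread over both sides of 0. None passed 2-fold, and of the 17 above background on at least 1 array 9 were higher and 8 lower, with a median of 0.05. SERPING1, the C1 inhibitor that also blocks factor XII and kallikrein, was at 8.07 with EtOH and 8.92 with Padma 28, which is 1.80-fold higher. The plasminogen receptor subunits ANXA2 and S100A10 were at 12.33 and 11.69 with EtOH and at 12.84 and 12.08 with Padma 28. The ANXA2 probe set is of the _x_at type, which can bind related transcripts. The protein C receptor PROCR went from 4.11, below background, to 4.55, at least 1.23-fold higher. Genes of this list without a probe set of their own were not analysed here.

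**Figure D4:**
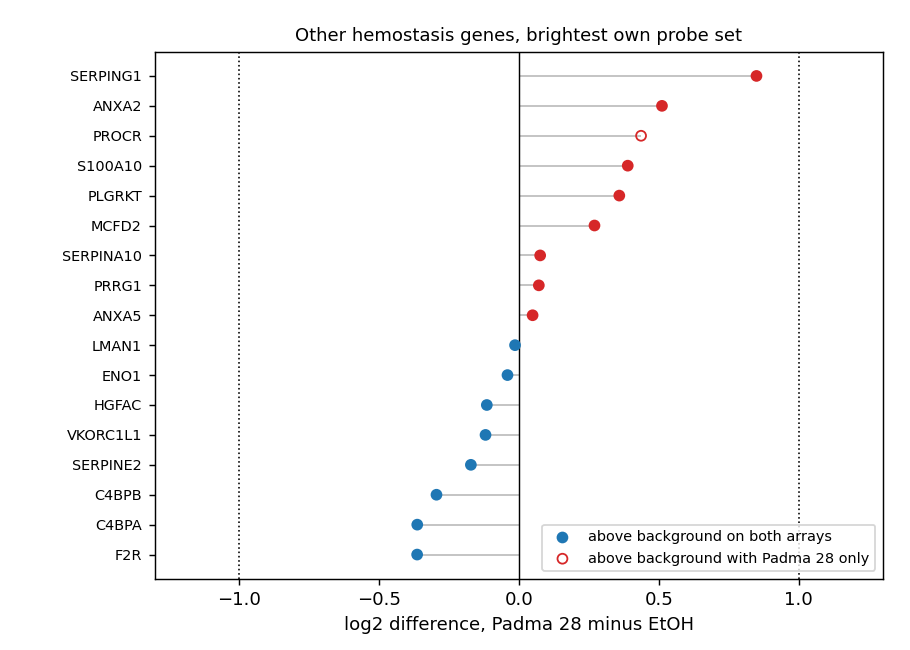
Log2 difference, Padma 28 minus EtOH (horizontal axis), of the 17 other hemostasis genes above background on at least 1 array, 1 array per treatment, with dotted lines at 2-fold, blue for lower, red for higher and an open circle for PROCR, which was above background with Padma 28 only. SERPING1 lies farthest from 0, at 0.85, and 9 of the 17 genes lie to the right of 0.

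Other plasma proteins of hepatocytes also lay mostly below 0. Of 25 above background, 18 were lower with Padma 28 and 7 higher, with a median of -0.09 beside -0.17 for the clotting genes. All 8 hepatocyte markers, most of which are also in this list, were lower, with a median of -0.16. The difference between the lists could not be tested with 1 array per treatment. Among all 1870 genes with a mean log2 value of at least 11, 43.5% were lower, with a median of 0.04. Of the 15 clotting genes at such levels, 14 were lower, with a median of -0.22.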

How the data were processed

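The deposited table holds a log2 expression value for each of 54675 probe sets on each of 2 Affymetrix U133 Plus 2.0 arrays. The authors made these log2 values with GCRMA, in which background is corrected from the probe sequences, arrays are normalized by quantiles and probes are combined by median polish. Version 2.28.0 of GCRMA, under R 2.15.1, is named in the submitters' processing notes, and the paper names other versions. This normalization brings the arrays to similar distributions (medians of 3.13 with EtOH and 3.08 with Padma 28), so a general rise or fall of all transcripts would be largely removed.

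Genes were named from the platform annotation and updated through the RefSeq gene table (GRCh38.p14). Of the probe sets 41097 had 1 gene, 1801 several and 11777 none in the table used. The brightest probe set of a gene, by its mean over both arrays, represented it. The most frequent value was read in bins of 0.1, and 2 log2 units were added. Calls were set at 2-fold, as in the paper's methods. With 1 array per treatment no test was run. Where only 1 array was above background, the fold was taken against the background limit of the dimmer array and is a lower limit. Annotated positions are those of RefSeq.

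All 33 genes of the list are named, with up to 4 of the other hemostasis genes, those with the largest difference above background. The members and the lists were chosen with earlier results of these data known. The split at a mean value of 11 was chosen after seeing the data. The search for 1 planned motif is not reported here. Only the 2-fold call was checked on simulated data, with planted differences past 2-fold. These were the same on all own probe sets of a gene, so the choice of the brightest probe set was not tested. Work was done in Python 3.11.15 with matplotlib 3.10.9, statsmodels 0.14.6, pandas 2.3.3 and numpy 2.4.6.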

Additional observations from a re-analysis of the deposited data

How the results depend on the processing

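No paired analysis was possible because each treatment had 1 array, and leaving one out leaves no comparison. The number of arrays limits the precision, and the values below background have no order. With the probe set of the largest difference representing a gene, 1 member was more than 2-fold higher (PLAUR) and 1 lower (PLG). Of all 19775 genes, 264 were higher and 153 lower by that much in this setting. The PLAUR and PLG probe sets were each below background on 1 array, so that lower limits of only 1.20-fold and 1.38-fold hold. With 1.5-fold as the threshold 2 members were lower (PLG and F5) and 1 of the other hemostasis genes was higher (SERPING1). At that threshold 713 of all 19775 genes were higher and 309 lower. The other alternatives left the counts of members and of other hemostasis genes at 0. They were the median over all probe sets, leaving out _x_at and _s_at types, counting shared probe sets, 2 filters on low values (2 or 3 log2 units over the mode), pseudocounts of 16 or 64 on the linear scale, a second quantile normalization, median centring and loess centring (span 0.3). Both kinds of centring left 24 of the 32 genes below 0, in place of 26. Of the 32 genes 26 kept their sign under each alternative that gave a value for them, 21 under 9 alternatives and 5 under 8. Some genes had no probe set left without the _x_at and _s_at types. The exceptions were F7, HRG, KLKB1, PLAUR, PROZ and VKORC1. Pseudocounts cannot turn a sign, and for genes with 1 probe set neither can the choice of probe set. The count also includes genes below background, so it says little about how stable the signs are.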

Other observations

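Of the liver's plasma proteins outside hemostasis, a few were higher with Padma 28 on their brightest probe set. Haptoglobin (HP), which binds free hemoglobin, was at 10.85 with EtOH and 11.45 with Padma 28, a difference of 0.61, and antichymotrypsin (SERPINA3) at 11.46 and 12.06, a difference of 0.60. Complement C5 was at 12.01 and 11.38, a difference of -0.63. Albumin (ALB) was at 16.62 and 16.52 on its brightest probe set, and transferrin (TF), the iron carrier, at 15.98 and 15.81.

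The wide gap between probe sets of FGA was not the only one among plasma proteins. A dimmer ALB probe set went from 11.50 to 10.43, a difference of -1.07, while the dimmest was higher, at 7.80 and 8.07. A dimmer TF probe set went from 10.83 to 9.60, a difference of -1.23. The brighter APOB probe set had a difference of -0.30 and the other of -0.88. Over the 4912 genes with 2 probe sets above background on both arrays, the second was lower than the brightest in 52.2%, and in 7 of the 8 clotting genes of this kind. These genes and probe sets were picked after their values had been seen.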
